A study of Mus musculus with 8 samples.

Results

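The enzymes described here attach mannose to serine and threonine of membrane and secreted proteins, or make the next addition to that mannose. They comprise 7 genes of the 19938 measured: Tmtc1, Tmtc2, Tmtc3 and Tmtc4, whose products modify cadherins and protocadherins, Pomt1 and Pomt2, whose products modify dystroglycan, and Pomgnt1, whose product extends the mannose laid down by the Pomt enzymes. Each was matched by its exact symbol in the array's annotation and was read by 1 probe set. Expression was measured on GeneChip Mouse Gene 1.0 ST arrays in total RNA from laser-microdissected neocortical layers II to IV of mice at postnatal day 2, with 1 array per pup. The 4 mutant pups carried Bcl11a flox/flox with Emx1 IRESCre/+, and the 4 control pups carried Bcl11a flox/+ with Emx1 IRESCre/+. All pups therefore carried the Cre, whose Emx1 locus is active in the lineage of cortical excitatory neurons and much of the cortical glia, and the controls had 1 floxed allele of Bcl11a themselves. Cells outside that lineage, among them interneurons, are not deleted for Bcl11a in either genotype. Nothing in the labels gives strain or litter.

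O-linked mannose is added in the endoplasmic reticulum from the lipid-bound donor dolichol phosphate mannose. Separate enzyme systems serve separate clients: the TMTC proteins, which carry tetratricopeptide repeats, act on the extracellular domains of cadherins in human cells, and the POMT1-POMT2 complex acts on dystroglycan, where the mannose is built into the chain that binds laminin. Human mutations of POMT1, POMT2, POMGNT1 or TMTC3 are known from malformations of the cerebral cortex. Dystroglycan glycosylation holds radial glial endfeet to the pial basement membrane, and cadherins sort and bind neurons.

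Values are the deposited log2 expression values, and differences are mutant minus control on that scale. A gene is said to have fallen or risen where limma's moderated test gave a Benjamini-Hochberg adjusted p under 0.05 over all 19938 genes. The enzymes were chosen with this comparison already known, so their differences and calls are descriptions, given with standard errors (SE) and 95% intervals and without p-values. In bulk tissue, fewer cells of a type and less RNA per cell cannot be told apart.

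Bcl11a read 8.56, 8.85, 8.37 and 8.75 in mutants 1 to 4, against 10.59, 10.52, 10.34 and 10.34 in controls 1 to 4. The lower signal was thus found in every array labelled mutant. The position of the probe set relative to the floxed exons was not analysed here. Array medians lay between 4.83 and 4.91. Control 1 stood apart from the other controls on principal component 2 (17.4% of the variance) and had the lowest array weight, 0.556. Differences without it are therefore given for Tmtc4, Tmtc1 and the pathway genes that passed and were named by the rule stated with the processing. An empirical floor of 4.31 was the highest reading of 3 genes of the Y chromosome in the 3 arrays whose Xist was high. The means of all 9 measured upper-layer neuron markers and all 10 deep-layer markers lay above it. Of all genes only 31.5% lay at or below it, and 0 markers of the oligodendrocyte and vessel lists did. Passing the floor therefore does not show which layers the tissue held.

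Of the 7 enzymes, Tmtc4 and Tmtc1 fell in the mutant layers and the other 5 were not called. Over all genes 4.15% were called, 1.79% as lower, and since the enzymes were picked from this contrast nothing is read from the count of 2 of 7. The same 2 genes were those whose mutant and control values did not overlap, which held for 9.25% of all genes in either direction and 3.79% in the lower. The median difference of the 7 enzymes was -0.01, against 0.02 over all genes.

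**Figure D1:**
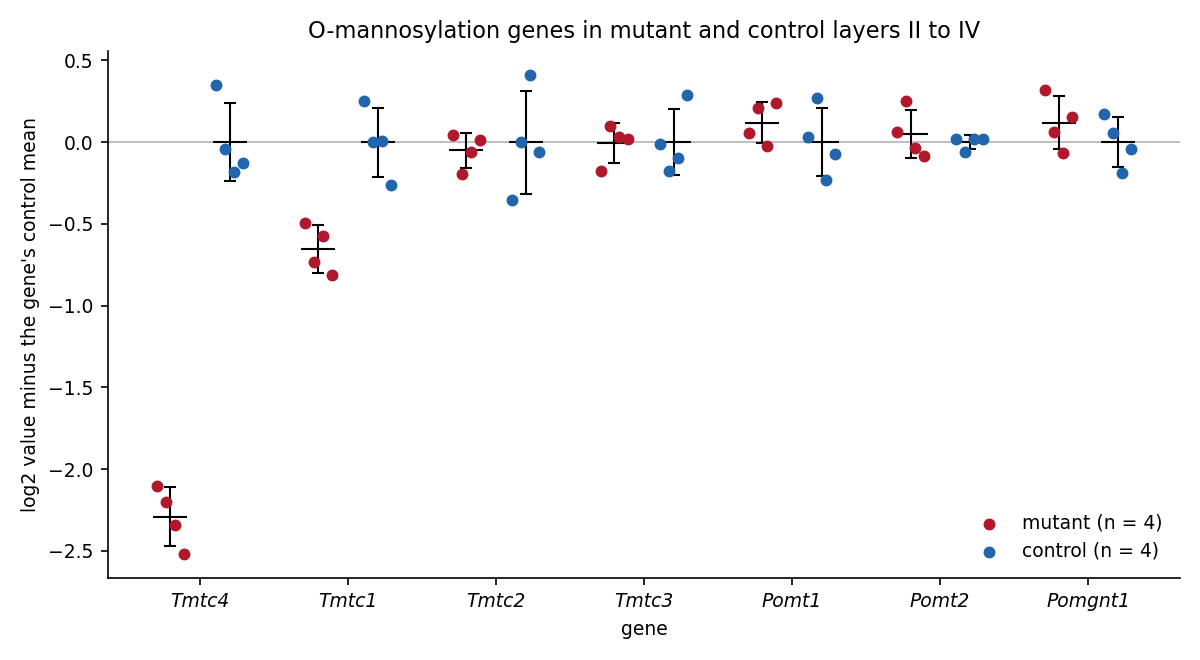
Log2 value of each O-mannosylation gene in each array, minus that gene's control mean; red points are mutants and blue points controls, and black bars show the mean and SD of 4 arrays. Mutant points of Tmtc4 and Tmtc1 lie below all control points, and the genotypes overlap for the other 5 genes.

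Tmtc4, a TMTC mannosyltransferase whose loss in mice is known from hearing loss, had the second-lowest difference of all genes, after the cadherin gene Cdh12. It read 6.53, 6.43, 6.29 and 6.11 in mutants 1 to 4, against 8.98, 8.59, 8.45 and 8.51 in controls 1 to 4. Every mutant was thus far below every control, and the genotypes did not overlap. The mean was 6.34 ± 0.18 in mutants and 8.63 ± 0.24 in controls (SD, n = 4 each), a log2 difference of -2.29 (SE 0.12), which is a 4.89-fold fall with an interval of 4.10 to 5.83. Without control 1, the brightest array for this gene, the difference was -2.17. The mutant values stayed above the floor of 4.31, so some signal remained.

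Tmtc1, its relative with the same kind of client, fell to a lesser extent. Mutants 1 to 4 read 8.31, 8.08, 8.24 and 7.997, and controls 1 to 4 read 9.06, 8.81, 8.82 and 8.55. The highest mutant lay 0.23 below the lowest control, so the groups were separate but close. The mean was 8.16 ± 0.14 in mutants and 8.81 ± 0.21 in controls (SD, n = 4 each), a log2 difference of -0.65 (SE 0.10) and a 1.57-fold fall with an interval of 1.35 to 1.84. Without control 1 the difference was -0.57, and 93 genes of all 19938 had a lower difference than Tmtc1. The call of Tmtc1 was lost when each gene's variance was estimated without moderation.

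The remaining TMTC genes showed no such gap. Tmtc2, a gene linked to hearing in humans, read 4.59, 4.35, 4.48 and 4.56 in mutants 1 to 4, against 4.19, 4.54, 4.96 and 4.48 in controls 1 to 4. Control 1 lay below the floor of 4.31 and the other 7 readings above it, and readings this close to it may be background. Its difference was -0.05 (SE 0.13). Tmtc3, the TMTC gene tied to cortical malformation in humans, read 5.31, 5.59, 5.52 and 5.51 in mutants 1 to 4, against 5.48, 5.31, 5.39 and 5.77 in controls 1 to 4. Its difference was -0.01 (SE 0.10), with an interval of -0.22 to 0.21.

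Pomt1 and Pomt2 encode the subunits of the dystroglycan mannosyltransferase, which works only as a complex of both. Pomt1 read 6.69, 6.84, 6.61 and 6.87 in mutants 1 to 4, against 6.67, 6.90, 6.40 and 6.56 in controls 1 to 4, a difference of 0.12 (SE 0.10). Pomt2 read 6.49, 6.67, 6.38 and 6.34 in mutants 1 to 4, against 6.44, 6.36, 6.44 and 6.44 in controls 1 to 4, a difference of 0.05 (SE 0.08). The genotypes overlapped for both subunits. Pomgnt1, the Golgi enzyme that adds N-acetylglucosamine to this mannose, read 8.14, 7.88, 7.75 and 7.97 in mutants 1 to 4, against 7.99, 7.88, 7.63 and 7.78 in controls 1 to 4. Its difference was 0.12 (SE 0.09). For these 3 genes the intervals of the difference ran from -0.12 at the lowest to 0.34 at the highest, so a rise above 1.26-fold lay outside each of them.

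**Figure D2:**
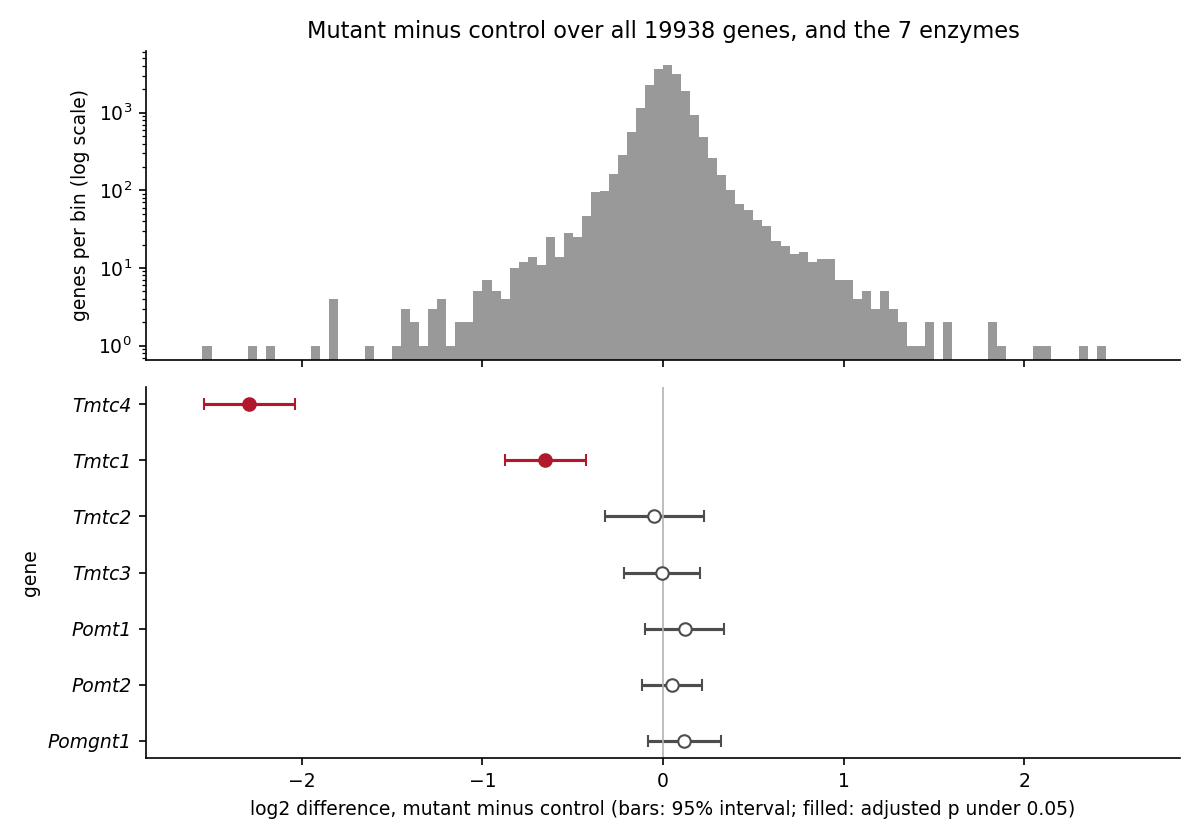
Above, a histogram of the log2 difference, mutant minus control, of all 19938 genes, with gene numbers on a log scale; below, the difference of each O-mannosylation gene with its 95% interval, filled where called. Tmtc4 at -2.29 lies at the far left edge of the distribution, Tmtc1 at -0.65 lies in its left tail, and the other 5 lie within 0.12 of 0.

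The sequences upstream of the start sites of the called genes are shown because these genes fell together. RefSeq (build GRCm38.p6) gave a start site for all 7 genes, with 9 windows of 250 upstream bases in all. Tmtc4 lies on the minus strand of chromosome 14, with the window chr14:122983284-122983533 and an overlapping second window further downstream. Tmtc1 lies on the minus strand of chromosome 6, with the window chr6:148444353-148444602. Both are printed 5′ to 3′ on the gene's strand, and capitals mark matches to the searched motifs:
Tmtc4: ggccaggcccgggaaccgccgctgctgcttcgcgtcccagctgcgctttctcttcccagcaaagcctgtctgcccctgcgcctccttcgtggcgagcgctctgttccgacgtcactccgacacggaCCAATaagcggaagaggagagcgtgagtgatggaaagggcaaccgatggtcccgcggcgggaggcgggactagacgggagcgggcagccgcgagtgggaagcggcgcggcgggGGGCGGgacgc
Tmtc1: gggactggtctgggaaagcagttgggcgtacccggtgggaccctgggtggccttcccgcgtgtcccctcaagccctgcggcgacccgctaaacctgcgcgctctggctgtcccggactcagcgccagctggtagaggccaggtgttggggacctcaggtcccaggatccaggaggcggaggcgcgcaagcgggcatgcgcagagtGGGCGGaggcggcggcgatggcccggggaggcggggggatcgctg
The 5 motifs, searched on both strands, were TGACCA, known as a BCL11A binding motif, TTCNNNGAA, the core shared by BCL6 and STAT factors, TATAAA of the TATA box, CCAAT of the CCAAT box and GGGCGG of the GC box. Neither TGACCA nor TTCNNNGAA was found in any of the 9 windows, while 11.4% and 7.02% of the 32851 windows of all genes held them. In the printed windows the capitals are 1 CCAAT and 1 GGGCGG for Tmtc4 and 1 GGGCGG for Tmtc1. GGGCGG occurred in 7 of the 9 windows and in 32.7% of all windows, CCAAT in 3 of the 9 and in 33.8%. TATAAA occurred in 1 of the 9, the second window of Pomgnt1, and in 12.4%. The GGGCGG of the printed Tmtc4 window also lies in the overlapping second window, so that site counts in both. Within a window no matches overlapped each other. The G and C content was 70% for the printed Tmtc4 window and 72% for Tmtc1, against a median of 52.4% over all windows. The second Tmtc4 window had 75.2%. It was 57.2% for Tmtc2, 59.6% for Tmtc3, 60% for Pomt1 and 62.4% for Pomt2. Pomgnt1, which was not called, had the highest, 80% in its first window, and the lowest, 49.6% in its second. The CG dinucleotide occurred 31 and 32 times in the 2 Tmtc4 windows and 23 times in Tmtc1, against a median of 6 over all windows. It occurred 4 times in Tmtc2 and 17 times in Tmtc3. It occurred 27 times in Pomt1, 22 times in Pomt2, and 41 and 3 times in the 2 Pomgnt1 windows.

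Markers of cortical cell types moved in the same arrays as Tmtc4 and Tmtc1, and their part in these falls was not tested. Over all genes, 2.36% rose and 1.79% fell. Of 9 measured upper-layer neuron markers 5 fell and 0 rose, with a list median of -0.35. Differences were below 0 for 7 of the 9, while Unc5d was higher in mutants without overlap (0.46, limma adjusted p = 0.0659). The summed linear signal of the 9 markers was 4872 to 5692 in mutants and 5980 to 6613 in controls, without overlap. Of 13 interneuron markers 2 fell, the neuropeptide gene Npy (-1.63) and the homeobox gene Dlx1 (-0.46), and 0 rose, with a median of -0.20. Differences were below 0 for 11 of the 13, while Calb2 was higher in mutants without overlap (0.86, limma adjusted p = 0.122). The interneuron sum was 1762 to 1878 in mutants and 2340 to 2422 in controls, with a mean gap, mutant minus control, of -543, of which Npy gave -295. Without Npy the sum was 1638 to 1725 in mutants and 1805 to 1986 in controls, still without overlap. Of 10 deep-layer markers Ldb2, a LIM domain binding gene, rose by 1.38, Ntsr1, a neurotensin receptor gene, fell by 0.90 and 8 were not called, with a median of 0.12. Their sum was 3465 to 4263 in mutants and 2172 to 3119 in controls, and Ldb2 alone gave 997 of the mean gap of 1079. Without Ldb2 the deep-layer sums overlapped, at 2094 to 2400 in mutants and 1859 to 2266 in controls. Of 6 cortical excitatory neuron markers the transcription factor gene Neurod6 rose by 0.70, the homeobox gene Emx1 fell by 0.49 and 4 were not called, with a median of 0.09. Their sum was 5739 to 6134 in mutants and 4594 to 5113 in controls, and Neurod6 gave 1005 of the mean gap of 1166. Without Neurod6 the sums overlapped, at 3120 to 3549 in mutants and 2757 to 3430 in controls. The markers named here and the sums without 1 gene were chosen after their values were seen. None of the markers in these 4 lists was at or below the floor. Vessel markers were below 0 in difference for 9 of 10, against 8480 of all 19938 genes, with a median of -0.12. Between genotypes 4 of them did not overlap, against 9.25% of all genes. Of these 4 markers Abcc9, a channel subunit gene of mural cells, fell by 0.32 (limma adjusted p = 0.0331). The vessel sum was 1042 to 1154.05 in mutants and 1153.79 to 1243 in controls, ranges that touched only at their ends. Sums of the other 8 lists, among them radial glia and astrocytes, oligodendrocyte lineage, microglia and meninges, overlapped between genotypes. Radial glia and astrocyte markers, 1 of 10 of which fell, summed to 5906 to 6820 in mutants and 6353 to 6946 in controls.

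Among the 9692 genes with an official name and a mean above the median gene, those whose pattern over the 8 arrays was most like that of Tmtc4 were Cacna2d3, Bcl6, Nectin3, Hs3st1 and Cyria, with Pearson's r of 0.99 for each. Cacna2d3 encodes a calcium channel subunit, Bcl6 a transcriptional repressor, Nectin3 an adhesion protein and Hs3st1 a heparan sulfate sulfotransferase. Most opposed were Samd5, Sulf2, Chrm3, Hpcal1 and Sema3c, with r of -0.99 for each. Sulf2 encodes a heparan sulfate sulfatase, Chrm3 a muscarinic acetylcholine receptor and Sema3c a secreted semaphorin. The 8 arrays form 2 genotype groups, so likeness over them cannot be told apart from a shared gap between genotypes, and 100 genes had an r of at least 0.95 with Tmtc4. The genes most like Tmtc1 were Nfia, a transcription factor of glial and neuronal development (r 0.99), Arhgap29 (0.98) and Jmy (0.98). Each of these 3 fell, by 0.39, 0.66 and 0.39 on the log2 scale. For the 5 enzymes that were not called, the 3 closest genes each had an r between 0.92 and 0.97, and none of them was called. These were Skp1, Zfp738 and Lcor for Tmtc2, Polrmt, Fads2 and Ube2z for Tmtc3, and Pop7, Wdr34 and Csad for Pomt1. Those closest to Pomt2 were Dclre1b, Ggct and Bud13, and those closest to Pomgnt1 were Psmb7, Aph1a and Siah3. All were picked as the highest r among the genes compared over only 8 arrays. Whether such values exceed chance was not tested, and the readings of Tmtc2 lay near the floor.

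**Figure D3:**
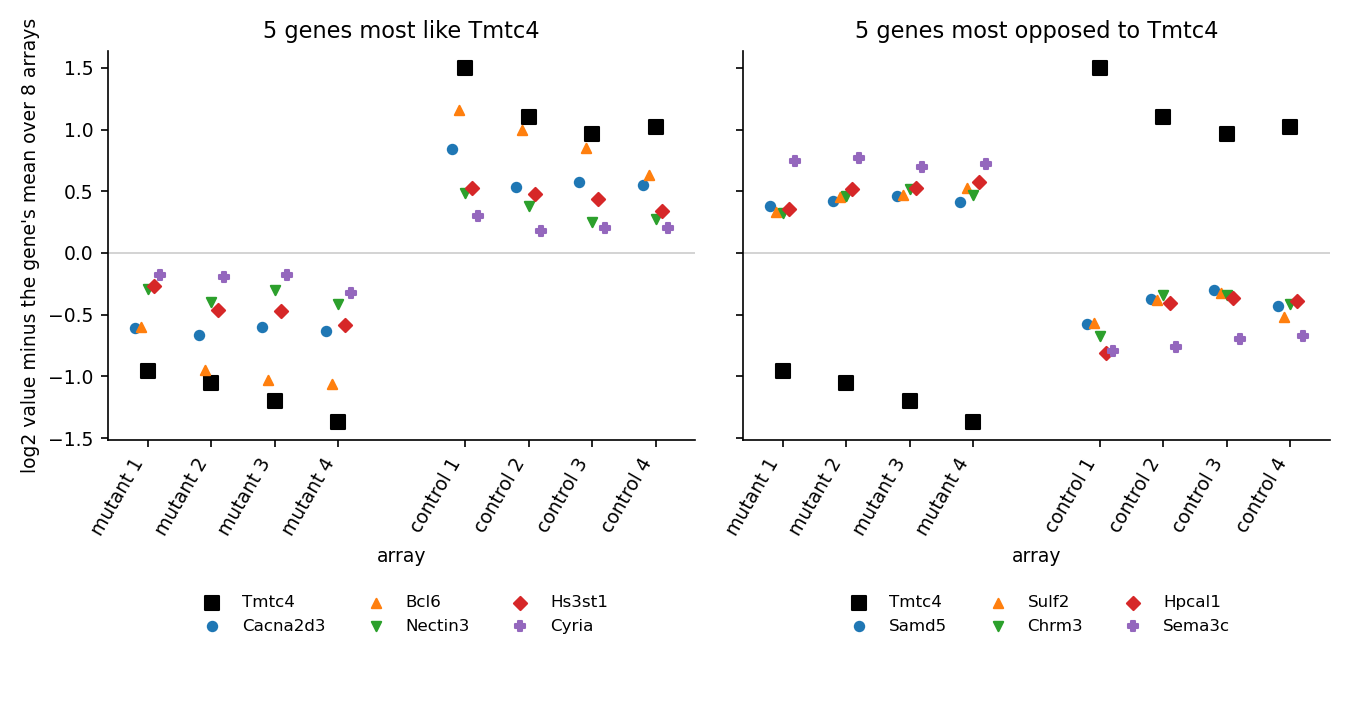
Log2 value in each of the 8 arrays, minus the gene's mean over them, for Tmtc4 (black squares) with the 5 most similar genes at left and the 5 most opposed at right. All 5 similar genes are lower in every mutant than in every control, all 5 opposed genes are higher, and Tmtc4 spans the widest range in both panels.

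The wider pathway was examined in 8 lists with 125 genes measured, of which 6 rose and 11 fell (13.6%, against 4.15% of all genes). The median difference was 0.01, against 0.02 over all genes. Cadherins gave 7 of the falls and 2 of the rises. The lists were chosen with earlier results of these data known, so nothing is read from the share called. Without mutant 2 the count of called genes was 10 and without mutant 3 it was 11. Of the 8 measured enzymes that extend O-mannose, mainly on dystroglycan, 0 rose and 0 fell. Their differences ran from -0.06 to 0.20 and the median was 0.01. The largest was that of Pomgnt2, which adds the N-acetylglucosamine of the laminin-binding chain (6.995 ± 0.07 in mutants and 6.80 ± 0.13 in controls, SD, n = 4 each, limma adjusted p = 0.235), followed by the xylosyltransferase gene Rxylt1 at 0.09 (adjusted p = 0.752). Another 4 genes of this list were not analysed here. Of 13 genes that make the mannose donor and its dolichol carrier, 0 rose and 0 fell, with a median of 0.04. Their largest differences were -0.17 for Srd5a3, a reductase of dolichol synthesis (adjusted p = 0.59), and 0.15 for Mpdu1, which serves the use of the donor (adjusted p = 0.508). Of all genes, 2.36% rose and 1.79% fell.

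Of 11 other enzymes of the endoplasmic reticulum that use the same donor, Dpy19l1 rose and 10 were not called, with a list median of 0.08. Dpy19l1 encodes a C-mannosyltransferase of tryptophan. It read 6.43, 6.65, 6.81 and 6.37 in mutants 1 to 4, against 5.68, 6.23, 6.14 and 6.15 in controls 1 to 4. Mutants were higher without overlap, control 1 was lowest, and the log2 difference was 0.52 (SE 0.12, limma adjusted p = 0.0303), or 0.39 without control 1. This call was lost without mutant 2, mutant 3 or control 3 (adjusted p from 0.0511 to 0.105), with arrays centred on their medians (0.0635) and with the Xist level as a covariate (0.0675). Dpy19l4 (0.19) and Pigv, a mannosyltransferase of glycosylphosphatidylinositol anchors (0.20), did not pass, with adjusted p of 0.369 and 0.399 in limma.

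Dag1, the gene of dystroglycan itself, read 8.77, 8.74, 8.68 and 8.73 in mutants 1 to 4, against 8.73, 8.86, 8.69 and 8.77 in controls 1 to 4. The ranges overlapped and the difference was -0.03 (SE 0.06, limma adjusted p = 0.899), with an interval of -0.17 to 0.10. Of 13 genes of dystroglycan and its membrane complex 1 fell, 0 rose and the median was 0.03. The member that fell was Sntb1, a syntrophin, by 0.27 on the log2 scale (5.17 ± 0.10 in mutants and 5.45 ± 0.07 in controls, SD, n = 4 each, limma adjusted p = 0.0456). That call was kept only without mutant 3 and lost without each other array in turn (adjusted p from 0.0696 to 0.121). Without control 1 the difference of Sntb1 was -0.24. The next in size, Sgce, a sarcoglycan (0.19), and Sntb2, a syntrophin (0.15), did not pass (limma adjusted p of 0.417 and 0.455).

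Of 12 ligands of glycosylated dystroglycan 2 rose and 0 fell, with a list median of 0.02. Slit2, a secreted guidance protein, read 8.06, 8.56, 8.39 and 8.37 in mutants 1 to 4, against 6.38, 7.26, 7.28 and 7.23 in controls 1 to 4. Mutants were well above controls and control 1 was far below the other controls. The log2 difference was 1.31 (SE 0.17, limma adjusted p = 0.00056), or 1.09 without control 1. Lama2, a laminin alpha chain, read 5.95, 5.93, 5.94 and 6.01 in mutants 1 to 4, against 5.50, 5.35, 5.34 and 5.56 in controls 1 to 4. Its groups did not overlap, and the difference was 0.52 (SE 0.07, limma adjusted p = 4.96e-04), or 0.54 without control 1.

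The cadherins and protocadherins outside the clustered loci, the class of clients of the TMTC enzymes, moved in both directions: of 38 measured, 7 fell, 2 rose and 29 were not called, with a median difference of -0.01. Cdh12 fell to 6.68 ± 0.07 in mutants, against 9.21 ± 0.09 in controls (SD, n = 4 each), and Cdh6 fell to 8.23 ± 0.08, against 9.44 ± 0.08 in controls. Their differences of -2.53 and -1.21 had limma adjusted p of 3.02e-10 and 4.9e-07. Pcdh9 fell by 0.77 on the log2 scale and Cdh13, which is anchored by a lipid and lacks a cytoplasmic tail, rose by 1.02 (limma adjusted p = 0.017 and 0.0171). Neither Pcdh9 nor Cdh13 passed when mutant 2, mutant 3 or mutant 4 was left out (limma adjusted p between 0.055 and 0.0719). Without control 1 the differences were -2.56 for Cdh12, -1.23 for Cdh6, -0.59 for Pcdh9 and 0.73 for Cdh13, and all 4 passed. Cdh2, N-cadherin, the broadly expressed cadherin of neural cells, read 11.14 ± 0.07 in mutants and 10.97 ± 0.09 in controls (SD, n = 4 each, limma adjusted p = 0.242), and is named after its values were seen.

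Tmem260, which mannosylates plexins and Met receptors in a system of its own, had a difference of -0.11 (SE 0.09, limma adjusted p = 0.685), and it too is named after its values were seen. Of 11 of its client genes Plxna1 fell, Plxnc1 rose and 9 were not called, with a median of 0.03. Plxna1, a semaphorin coreceptor, read 9.31 ± 0.05 in mutants and 9.75 ± 0.12 in controls (SD, n = 4 each), a difference of -0.45 (limma adjusted p = 0.00237), or -0.39 without control 1. Plxnc1, the receptor of Sema7a, read 8.02 ± 0.14 in mutants and 7.19 ± 0.51 in controls (SD, n = 4 each), a difference of 0.84 (limma adjusted p = 0.0225), or 0.59 without control 1. Its call was lost without any single mutant (adjusted p from 0.0505 to 0.0776).

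Of 19 genes of endoplasmic reticulum stress and calcium handling 2 fell and 0 rose, and the list median was -0.01. Atp2a2, the gene of the SERCA2 calcium pump of that compartment, read 10.64, 10.60, 10.66 and 10.62 in mutants 1 to 4, against 10.99, 10.91, 10.99 and 10.997 in controls 1 to 4. All mutants were lower, and the difference was -0.34 (SE 0.06, limma adjusted p = 0.00357), or -0.33 without control 1. Edem1, a lectin of the degradation of misfolded glycoproteins, fell by 0.32 on the log2 scale (6.89 ± 0.16 in mutants and 7.21 ± 0.07 in controls, SD, n = 4 each, limma adjusted p = 0.0439). This call was kept only without mutant 1 or control 1 and was lost without each other array in turn (adjusted p from 0.0802 to 0.12). Without control 1 the difference of Edem1 was -0.34. The chaperone gene Hspa5 and the stress transcription factor gene Ddit3, also named after their values were seen, had differences of -0.04 and -0.02 (limma adjusted p = 0.904 and 0.962).

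**Figure D4:**
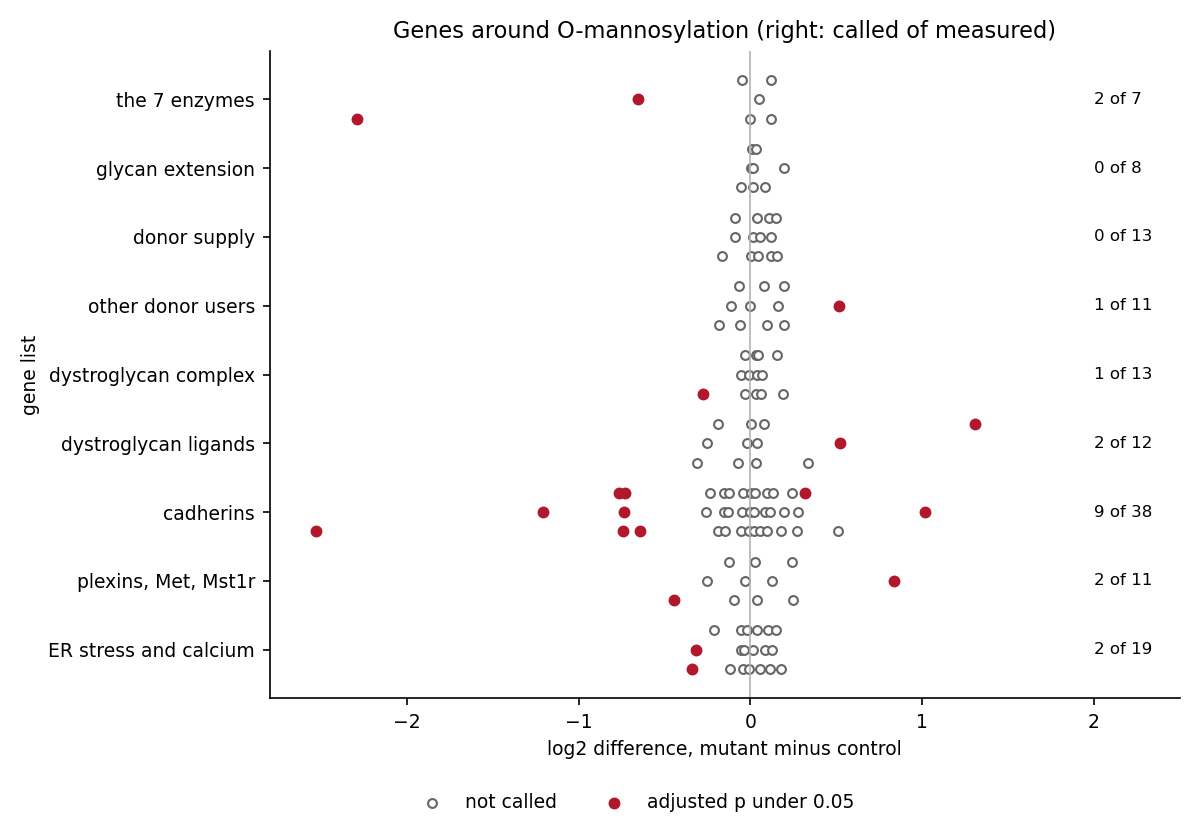
Log2 difference, mutant minus control, of each measured gene in the lists around O-mannosylation, filled red where limma's adjusted p was under 0.05, with the number called of those measured at right; vertical spread within a row has no meaning. Calls number 0 of 8 for glycan extension, 0 of 13 for donor supply and 9 of 38 for cadherins.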

How the data were processed

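Total RNA from 8 pups was hybridised to 1 array each, and depth on arrays is limited by their number. The deposited values were taken as log2 expression that the authors had normalized between arrays, since they run from 2.03 to 13.8 with nearly equal array medians. The authors analysed the arrays in BRB-ArrayTools, per the labels; how background, normalization and probe summary were handled and which log base was used is not given in the sources used here, and another base would give other fold changes. Of 35556 probe sets, 21789 had 1 symbol in the platform annotation, 1621 had several and 12146 were unnamed. The brightest probe set by mean over 8 arrays was kept for each symbol, giving 19938 genes, and dim genes were kept. A linear model on genotype alone was fitted with limma (version 3.58.1, under R version 4.3.3), and the procedure was tested on simulated data. Nothing says that the pups came from separate litters, and p-values measure the spread between these arrays.

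The enzymes and all lists were chosen with earlier results of these data known. Named are the 7 enzymes, Bcl11a, Dag1, up to 4 genes that passed in each list, the 2 largest others where fewer than 2 passed, and the genes most like each enzyme over the 8 arrays. Any other gene was named after its values were seen, including Npy and Dlx1. Alternatives covered normalization, dim genes, probe set choice, array weights, variance estimation, thresholds, the Xist level, the replicate number as a block and leaving out each array. Whether replicate numbers pair pups was checked, and the numbers were not treated as pairs.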

Additional observations from a re-analysis of the deposited data

Results flagged for a closer look

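The 7 enzymes and the 21 pathway genes named by rule were examined in each genotype's group of 4 arrays. For 6 of these genes, 1 array lay far from the other 3. Other genes named above, among them those named for likeness to an enzyme, were not examined in this way. Of 56 groups examined, chance alone would mark about 1 in 20. Pomt2 read 6.36 in control 2, while the other controls all read 6.44. Dpy19l1 read 5.68 in control 1, against 6.14 to 6.23 in the other controls. Sgce read 6.19 in control 1, against 6.58 to 6.63 in the other controls. Sntb2 read 5.07 in control 1, against 5.36 to 5.39 in the other controls. Slit2 read 6.38 in control 1, against 7.23 to 7.28 in the other controls. Atp2a2 read 10.91 in control 2, against 10.987 to 10.997 in the other controls.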

How the results depend on the processing

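Tmtc4 was called as lower in all 19 alternatives, with differences from -2.35 to -2.17, and Tmtc1 in 18 of 19, with differences from -0.74 to -0.57. Tmtc1 was not called without moderation of variances. None of the other 5 enzymes was called in any alternative that held it; Tmtc2 was not in the fit without the dimmest 50% of genes. Without moderation 249 genes, 1 enzyme and 7 other pathway genes were called, against 827, 2 and 17 in the reported analysis. At an adjusted p under 0.01, 447 genes and 10 other pathway genes were called. Leaving out each array in turn gave 584 to 814 genes, 2 enzymes each time and 10 to 19 other pathway genes. With the replicate number as a block, 987 genes, 2 enzymes and 18 other pathway genes were called, and Sntb1 and Edem1 lost the call. Deviations of same-numbered arrays correlated by 0.06 to 0.30, above 0.1 in 3 of 4 pairs, and mutant 2 did not correlate best with its own number. Of the 12 pathway genes named by rule that passed, 5 (Cdh12, Cdh6, Lama2, Plxna1 and Atp2a2) were called in all 19 alternatives. Slit2 was called in all but that without moderation (limma adjusted p = 0.0768, 2.1e-05 to 0.00587 elsewhere). With an intensity trend and robust variances Sntb1, Cdh13, Pcdh9 and Plxnc1 were not called. None of the 9 pathway genes named by rule that did not pass was called in any alternative that held them. At an adjusted p under 0.1, 20 other pathway genes were called. Those added were Nrxn3, Lama4 and Plxna2, all named after their values were seen (limma, 0.0638, 0.0732 and 0.0928). Nrxn3 and Lama4 were lower in mutants, as given below, and Plxna2 was higher, by 0.24 without overlap. Readings near the floor of 4.31, as for Tmtc2, limit what a difference can show.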

Other observations

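The other cadherin genes that passed, named after their values were seen, were Cdh8, Cdh18, Cdh20, Pcdh11x and Pcdh18. Their differences without control 1 and in the other alternatives are not given here. Cdh8 read 8.02 ± 0.13 in mutants and 8.75 ± 0.32 in controls (SD, n = 4 each), a difference of -0.73 (limma adjusted p = 0.00479). Control 1 was its brightest array, at 9.19 against 8.45 to 8.74 in the other controls. Cdh18 read 5.11 ± 0.15 in mutants and 5.75 ± 0.06 in controls, a difference of -0.64. Cdh20 read 6.71 ± 0.21 in mutants and 7.45 ± 0.14 in controls, a difference of -0.74. The X-linked Pcdh11x read 7.08 ± 0.12 in mutants and 7.82 ± 0.13 in controls, a difference of -0.74. Xist was high in 1 of the 4 mutants and 2 of the 4 controls, so the genotypes were not balanced for it. Pcdh18 was the member with the smallest change, at 7.09 ± 0.10 in mutants and 6.78 ± 0.08 in controls, a difference of 0.32 (limma adjusted p = 0.0204). Among ligands of dystroglycan, the neurexin gene Nrxn3 (-0.31) and the laminin gene Lama4 (-0.25) stayed above the threshold, with limma adjusted p of 0.0638 and 0.0732.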
